A study of Mus musculus with 90 samples.

Results

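The 8 transcripts described here make up the core of the melanocortin and neuropeptide Y (NPY) feeding circuit: the peptide precursors Pomc, Cartpt, Agrp and Npy, and the receptors Mc3r, Mc4r, Npy1r and Lepr. They were taken as the rows of the count table whose mouse Ensembl identifier carries one of these symbols, and all 8 were found among 37991 gene rows. The 90 libraries hold poly(A) RNA of frontal cortex, hypothalamus and amygdala from territory-holding C57BL/6J males, the residents. After living with a C57BL/6J female, removed shortly before the test, each resident met for 5 min either an unfamiliar BALB/cJ male in a wire mesh cage (intruder) or the same cage with a paper cup in it (control), and was killed 30, 60 or 120 min later, by cervical dislocation according to the series text. The 3 regions, 3 times and 2 exposures give 18 groups of 5 libraries, except hypothalamus controls at 30 min with 3 and frontal cortex at 120 min with 6 in each exposure. Each library carries the label of 1 of 32 animals, 28 of which gave all 3 regions. The series text also speaks of pooled RNA samples without saying how they were pooled, and gives no ages.

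In the arcuate nucleus, at the base of the hypothalamus, one set of neurons makes proopiomelanocortin (Pomc), which is cut into melanocortin peptides that activate the receptors Mc3r and Mc4r and lower food intake. A neighbouring set makes agouti-related peptide (Agrp), which opposes melanocortins at those receptors, together with Npy, which raises food intake through receptors such as Npy1r. Both sets carry the leptin receptor Lepr, through which fat stores are sensed, while Npy and the Cartpt peptide are also made by other neurons, Npy by many cortical and amygdala interneurons.

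Libraries held 38.6 M to 58.86 M reads in gene rows, with a median of 49 M. Levels are in CPM, read counts scaled by TMM within each region. Levels of different regions were thus scaled apart, while fold differences between regions came from a joint fit of control libraries. A gene was called where its Benjamini-Hochberg adjusted p over all genes tested in a fit with edgeR's quasi-likelihood test was under 0.05. From the labels, each replicate was assumed to be a different animal, since the series text does not say how RNA was pooled. If that holds, the p-values measure the spread between animals and their dissections. If RNA of several animals was pooled, they measure the spread between pools instead. Libraries could stand apart in neighbouring tissue: 3 control libraries at 60 min held over 10 CPM of the pituitary gene Gh or over 1000 CPM of the choroid plexus gene Ttr. The column headers carry the tag ISO on every 30 min library and CERV on every 60 and 120 min library; what the tags mean was not given in the sources used here, so whether they bear on how animals were killed is not known, and the tag cannot be told apart from the step from 30 min to the later times. Library index also follows the design: in frontal cortex no index is shared between times within an exposure, nor between exposures at 120 min, so index cannot be told apart from those comparisons there. In hypothalamus no index is shared between times in controls, and none links 120 min to the earlier times in intruder animals, with the same limit. In amygdala intruder animals no index is shared between times, and 120 min controls share none with earlier controls. For these comparisons a block for index rests on libraries of the other exposure. Between exposures in amygdala, only control replicate 1 at 60 min carries the index of the intruder libraries. At 120 min only intruder replicate 6 carries that of the controls. Index is thus hard to tell apart from exposure at those times.

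The ligands of the circuit were strongly regional. Pomc ranged from 3.71 to 76.8 CPM in the 28 hypothalamus libraries, with a median of 41.1 CPM. In the 30 amygdala libraries it ranged from 0.567 to 1.48 CPM with a median of 0.959 CPM, and in the 32 frontal cortex libraries from 0.412 to 1.13 CPM with a median of 0.706 CPM. No hypothalamus library overlapped either other region. Agrp had a median of 4.53 CPM in the hypothalamus, where it ranged from 0.0559 to 11.7 CPM. It was at 0.021 to 0.193 CPM in amygdala (1 to 10 reads per library) and at 0 to 0.146 CPM in frontal cortex (0 to 8 reads), so the lowest hypothalamus libraries overlapped both. Cartpt, the precursor of the CART peptides that reduce feeding, descended in steps, with medians of 67.1 CPM in hypothalamus, 14.4 CPM in amygdala and 7.85 CPM in frontal cortex. Npy ran the other way, highest in frontal cortex (49.4 to 89.9 CPM, median 68.7 CPM), lower in amygdala (25.4 to 44.4 CPM, median 32.7 CPM) and lowest and most scattered in hypothalamus (4.65 to 40.2 CPM, median 18.2 CPM).

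**Figure D1:**
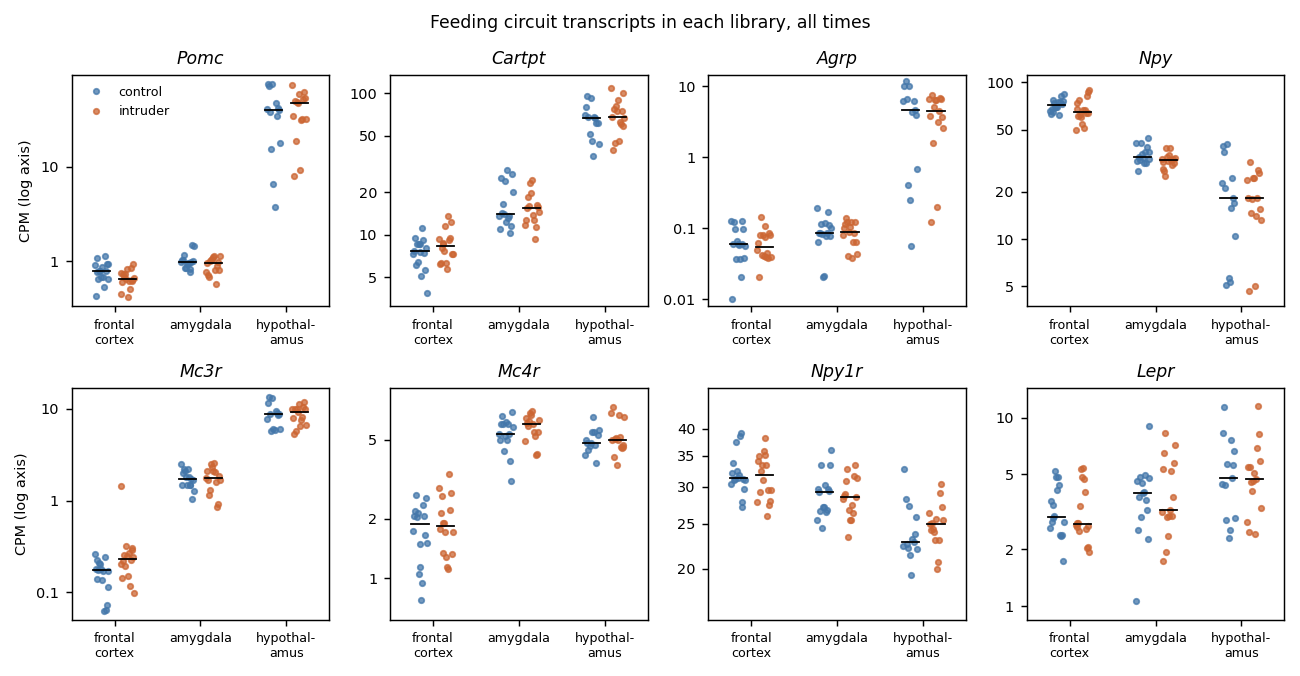
Levels of the 8 transcripts in CPM on a log axis, 1 point per library over all times, with control and intruder libraries side by side in each region and a bar at each median; a library with 0 reads is drawn at 0.01 CPM. Pomc, Agrp, Cartpt and Mc3r are highest in hypothalamus, Npy and Npy1r highest in frontal cortex, and within the hypothalamus the points of Agrp, Pomc and Npy are the most spread.

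Among control libraries, with the animal as a block, 6 of the 7 members tested differed between hypothalamus (n = 13) and frontal cortex (n = 16), where 81.9% of 17161 genes were called. Pomc was 36.1-fold higher in hypothalamus (log2 difference 5.17 ± 0.276 SE, adjusted p 3.97e-17) and Cartpt 7.58-fold higher (2.92 ± 0.158, 5.45e-17). Npy was lower, at 0.218 of the frontal cortex level (-2.20 ± 0.223, 1.95e-10). Agrp did not pass the filter on low counts in that fit. Without the filter it was estimated 56.9-fold higher in hypothalamus than in frontal cortex, with a 95% interval of 34 to 95.3, and 39.8-fold higher than in amygdala (adjusted p 6.31e-16 and 5.88e-15). Between amygdala (n = 15) and frontal cortex, where 66.8% of genes were called, 5 of 7 members differed, and between hypothalamus and amygdala, where 71.5% were called, 6 of 7 did. With most genes called in each comparison, the sizes of the differences say more than the counts. Pomc did not pass the test between amygdala and frontal cortex (log2 0.28 ± 0.302, adjusted p 0.417). Cartpt was 2.08-fold and Npy 0.451-fold in amygdala relative to frontal cortex (adjusted p 3.09e-07 and 7.36e-06).

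The receptors were spread more evenly, apart from Mc3r, the melanocortin receptor of hypothalamic nuclei. Mc3r was at a median of 8.88 CPM in hypothalamus (5.32 to 13.6 CPM), 1.74 CPM in amygdala (0.843 to 2.55 CPM) and 0.197 CPM in frontal cortex (0.0629 to 1.45 CPM). The control libraries gave a 47.1-fold excess in hypothalamus over frontal cortex (log2 5.56 ± 0.165 SE, adjusted p 1.42e-23) and a 10.1-fold excess in amygdala over frontal cortex (3.34 ± 0.168, 4.78e-17), in which Mc3r controls held 3 to 12 reads each. Mc4r, the melanocortin receptor tied to body weight, stood at similar levels in amygdala (median 5.85 CPM) and hypothalamus (4.99 CPM) and lower in frontal cortex (1.84 CPM). Its hypothalamus to frontal cortex ratio was 2.43 (log2 1.28 ± 0.124, adjusted p 7.74e-11), and amygdala to frontal cortex 2.94 (1.55 ± 0.12, 1.15e-12). These ratios pool times over which frontal cortex Mc4r changed. At 30, 60 and 120 min its control means were 1.08, 2.02 and 2.13 CPM in frontal cortex. They were 5.6, 4.97 and 4.62 CPM in hypothalamus and 5.35, 5.01 and 5.78 CPM in amygdala. The small difference between hypothalamus and amygdala (log2 -0.28 ± 0.12, adjusted p 0.0405) was no longer called with upper quartile scaling (-0.23, 0.0843), without the animal block (-0.23, 0.0869) or without the libraries high in Gh or Ttr (-0.28, 0.0566).

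Npy1r, the main feeding receptor for Npy, followed its ligand's order over a much narrower range, with medians of 31.3 CPM in frontal cortex, 28.6 CPM in amygdala and 24.1 CPM in hypothalamus. The ranges of all 3 regions overlapped, yet each step was called: hypothalamus was at 0.65 of frontal cortex (log2 -0.62 ± 0.063 SE, adjusted p 2.14e-10), amygdala at 0.843 of frontal cortex (-0.25 ± 0.059, 0.000535) and hypothalamus at 0.772 of amygdala (-0.37 ± 0.063, 4.35e-06). Lepr was the member with no called regional difference. Over all times its medians were 4.75 CPM in hypothalamus, 3.81 CPM in amygdala and 2.8 CPM in frontal cortex. Its ranges over all times overlapped, reaching 11.5 CPM in hypothalamus and 9 CPM in amygdala. By time, Lepr control means were 3.51 CPM in hypothalamus against 4.68 CPM in frontal cortex at 30 min. They were 5.5 against 2.33 CPM at 60 min and 6.27 against 3.06 CPM at 120 min. The hypothalamus to frontal cortex difference was 0.49 ± 0.24 on the log2 scale (adjusted p 0.0617), a value that DESeq2 did call.

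Per kilobase of exon, the control hypothalamus held most Cartpt (50.7 CPM per kb), then Npy (35.6) and Pomc (29.9), with Npy1r (6.98), Agrp (4.98), Mc3r (3.37), Mc4r (1.78) and Lepr (0.757) below them. Neighbours in that order from Cartpt to Pomc were within the spread between libraries, since Pomc alone had an SD of 24.6 CPM around its mean of 39.4 CPM. Control frontal cortex held mainly Npy (127 CPM per kb), Npy1r (9.35) and Cartpt (5.89), with all others under 1 CPM per kb.

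Within the hypothalamus, Agrp, Pomc and Npy were the members that varied most among libraries of a group, with Lepr next. The coefficient of variation within a group had a median over the 6 groups of 62% for Agrp, 50.7% for Pomc and 50.5% for Npy, against 38.6% for Lepr, 24% for Cartpt, 24.6% for Mc3r, 16.1% for Mc4r and 10.6% for Npy1r. Over all 28 libraries the highest Agrp level was 209 times the lowest, and for Pomc the ratio was 20.7. In 6 libraries Agrp lay under 1 CPM (0.0559 to 0.687 CPM, 3 to 32 reads), and in the same libraries Pomc was at 3.71 to 17.8 CPM and Npy at 4.65 to 10.5 CPM. These 6 were spread over both exposures and all times: controls 3 and 5 and intruder 4 at 30 min, control 6 at 60 min, and control 6 and intruder 3 at 120 min. In bulk tissue, fewer cells of a type and less RNA per cell cannot be told apart.

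The circuit's transcripts moved together from library to library. Over the 28 hypothalamus libraries, 26 of 28 pairs of members were correlated in log2 CPM with an adjusted p under 0.05 by permutation test of Pearson's r, 21 positively and 5 negatively; by Spearman's rho 24 passed, 3 of them negatively. Of all pairs among 14470 genes of these libraries, 18.8% had an absolute r of at least 0.44, the level of the weakest called member pair, and 0.148% reached 0.85, as 10 of the 28 member pairs did. Among Pomc, Agrp, Npy, Cartpt and Mc3r the 10 pairs had r from 0.85 to 0.96 and Spearman's rho from 0.84 to 0.97, all at adjusted p 1.87e-05 for r and 2.55e-05 for rho, from the smallest p that 100000 permutations can give (1e-05). Without the 2 libraries farthest from the median r stayed at or above 0.82, and with group means subtracted at or above 0.86. Within single times r ran from 0.91 to 0.99 at 30 min (n = 8), 0.69 to 0.93 at 60 min (n = 10) and 0.81 to 0.98 at 120 min (n = 10). Since the 6 libraries low in Agrp lie apart from the others, r was also taken among the 22 with at least 1 CPM, where it was 0.69 to 0.92, and among the 6, where it was 0.07 to 0.92; that division was chosen after the values were seen. With those 6 left out, the r of Lepr fell from 0.73 to 0.33 with Pomc and from 0.76 to 0.39 with Agrp. It fell from 0.77 to 0.42 with Npy and from 0.59 to 0.10 with Cartpt. A narrower range of Agrp tends to lower r, so these lower values are a description only.

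Agrp and Npy, made by the same arcuate neurons, were the closest pair together with Pomc and Agrp (each r 0.96; rho 0.97 and 0.88). In the 20 libraries with at least 3 CPM of Agrp there were 3.08 to 4.71 CPM of Npy for each CPM of Agrp, and the libraries with 1.61 and 2.59 CPM of Agrp had 9.09 and 5.12. In the 6 libraries under 1 CPM the ratio was 12.6 to 95.3; since libraries were divided by the ratio's own denominator, this order is a description only. Pomc was at 5.47 to 14.7 times Agrp in the 20 libraries and at 25.9 to 66.3 times in the 6. Of the 8 libraries lowest in Agrp, 7 were also among the 8 lowest for each of Pomc, Npy, Cartpt and Lepr, 8 for Mc3r, 5 for Npy1r and 0 for Mc4r. Mc4r was the exception: its r was -0.60 with Agrp (rho -0.55, adjusted p 0.000867 for r), and -0.51, -0.56, -0.55 and -0.44 with Pomc, Npy, Lepr and Mc3r. By rank the relations of Mc4r with Pomc (rho -0.37, adjusted p 0.0619) and Mc3r (-0.34, 0.0835) did not pass, and among the 22 libraries with at least 1 CPM of Agrp their r was 0.03 and -0.12. The Agrp relation was weaker without the 2 farthest libraries (-0.42) and among the 22 libraries with at least 1 CPM of Agrp (-0.27). Both choices were made on Agrp itself, and a narrower range tends to lower r. The lower values therefore do not show on which libraries the relation rests.

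**Figure D2:**
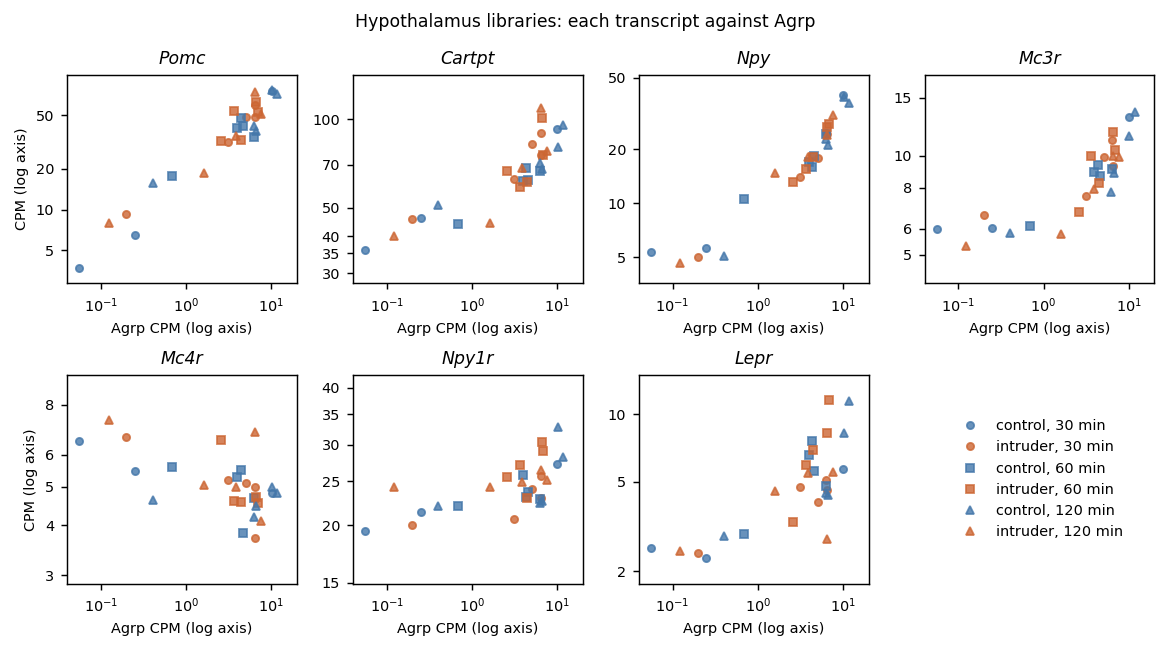
Each of the other 7 transcripts against Agrp in the 28 hypothalamus libraries, both in CPM on log axes; colour gives the exposure and marker shape the time. Pomc, Npy, Cartpt and Mc3r climb with Agrp in libraries of every group, 6 libraries lie under 1 CPM of Agrp, and Mc4r slopes the other way.

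Marker genes of the surrounding mediobasal hypothalamus moved with Agrp and Pomc, the 2 members set against them. Agrp was correlated with the mean log2 level of marker lists for tanycytes, the ependymal cells lining the floor of the third ventricle (r 0.94, rho 0.90, 6 genes), for the ventromedial nucleus (0.93, 0.90, 3 genes) and for other arcuate neurons (0.88, 0.77, 5 genes), each at adjusted p 4.33e-05 for r in a family of 26 by permutation test. Sox14 is on both the ventromedial and the arcuate list, so these lists are not separate. The pituitary list of 8 genes followed Agrp less closely (r 0.63, rho 0.60, adjusted p 0.00078). Its r was 0.74, 0.21 and 0.73 within 30, 60 and 120 min. The oligodendrocyte list of 4 genes passed by rank only (rho -0.51, adjusted p 0.0209; r -0.33, adjusted p 0.174). Lists for the lateral hypothalamus (r -0.25, adjusted p 0.232) and the paraventricular nucleus (-0.29, 0.203) did not pass. The summed tanycyte markers ran from 32.7 to 175 CPM over hypothalamus libraries, the arcuate markers over the narrower range of 73.4 to 118 CPM, the ventromedial markers from 17.8 to 80.2 CPM and the pituitary markers from 0.224 to 20.6 CPM; no tanycyte, ventromedial or arcuate marker was at 0 in any hypothalamus library, while 7 of the 8 pituitary markers were at 0 in some. The summed tanycyte list had medians of 95.3 CPM in hypothalamus, 125 CPM in amygdala and 85.6 CPM in frontal cortex. Its sum is thus not particular to the hypothalamus. The part of dissection in the relations with Agrp and Pomc was not tested. By the same measure with group means subtracted, the 3 genes nearest to each ligand among 14462 were Rax (r 0.975), Nkx2-4 (0.968) and Tbx19 (0.963) for Agrp, H2-Q2 (0.974), Cited1 (0.961) and Amigo2 (0.955) for Pomc, Cdh22 (0.96), Tbx3 (0.959) and Col23a1 (0.957) for Npy, and 6330403K07Rik (0.961), Ddc (0.96) and Fhad1 (0.959) for Cartpt. Rax and Col23a1 are themselves on the tanycyte list. Tbx19 is on the pituitary list, so that list's relation with Agrp includes it.

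Because Pomc, Npy and Cartpt moved together, the 250 bases before the annotated start of each are shown for comparison, from RefSeq on GRCm38.p6, 5′ to 3′ on the gene's strand; 6 of the 8 members have an entry in that table. Pomc lies at chr12:3954695-3954944 on the plus strand, Cartpt at chr13:99900684-99900933 on the minus strand and Npy at chr6:49822460-49822709 on the plus strand. Capitals mark matches to 4 motifs searched on both strands: the TATA element TATAAA, the cyclic AMP response element TGACGTCA, the STAT-type element TTCNNNGAA and the E-box CACGTG.
Pomc: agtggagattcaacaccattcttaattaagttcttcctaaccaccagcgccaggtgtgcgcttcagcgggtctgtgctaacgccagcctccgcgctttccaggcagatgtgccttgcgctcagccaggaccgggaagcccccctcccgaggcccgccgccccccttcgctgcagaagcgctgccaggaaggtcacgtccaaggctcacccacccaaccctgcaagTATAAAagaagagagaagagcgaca
Cartpt: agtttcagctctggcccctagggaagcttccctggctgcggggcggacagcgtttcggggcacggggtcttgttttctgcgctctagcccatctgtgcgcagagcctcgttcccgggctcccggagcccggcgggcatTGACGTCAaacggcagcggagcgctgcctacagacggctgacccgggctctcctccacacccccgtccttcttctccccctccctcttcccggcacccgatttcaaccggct
Npy: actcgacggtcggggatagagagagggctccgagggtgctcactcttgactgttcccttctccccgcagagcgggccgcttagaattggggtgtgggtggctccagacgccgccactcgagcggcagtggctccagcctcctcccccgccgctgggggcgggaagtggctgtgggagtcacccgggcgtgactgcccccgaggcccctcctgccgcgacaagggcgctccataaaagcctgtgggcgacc
The Pomc window held 1 TATAAA on the gene strand, its first base 25 bases before the start. TATAAA occurs in 12.4% of 32851 windows of the same length. The Cartpt window held 1 TGACGTCA, which reads the same on both strands, 112 bases before the start, a motif found in 1.55% of windows. No match to the 4 motifs was found in the Npy window, which says only that these letters are not in it; TTCNNNGAA and CACGTG, in 7.02% and 6.02% of windows, were in none of the 3. GC content was 60%, 66.8% and 69.2% for Pomc, Cartpt and Npy, against a median of 52.4% over all windows.

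The central comparison of the study, residents shown an intruder against residents shown the paper cup, gave no called difference in any member. Over regions and times 66 tests were made. None was called by edgeR, 4 had an unadjusted p under 0.05, and the lowest adjusted p was 0.342. DESeq2 gave 6 at an unadjusted p under 0.05 and called 0 of those to which it gave an adjusted p. At no time in any region were the intruder and control libraries of a member fully separated, as they were for 0.257% to 3.21% of all genes tested, depending on the region and time. Estimated log2 differences ran from -0.85 to 1.11.

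In the hypothalamus the widest estimates were those of the arcuate ligands. At 120 min Agrp was at 6.25, 10.2, 11.7, 6.66 and 0.404 CPM in controls and at 6.53, 3.86, 0.123, 7.59 and 1.61 CPM in intruder animals. Pomc was at 41.8, 76.8, 72, 38.4 and 15.7 CPM in those controls and at 73.7, 35.2, 7.96, 50.6 and 18.8 CPM in those intruder animals. Npy was at 22.9, 39.2, 36.1, 21.1 and 5.08 CPM against 23.9, 18.2, 4.65, 31.2 and 14.7 CPM. Each exposure held high and low libraries, and the ranges overlapped almost wholly. The log2 differences were -0.85 for Agrp (95% interval -2.58 to 0.89), -0.40 for Pomc (-1.62 to 0.82) and -0.43 for Npy (-1.49 to 0.63), intervals wide enough to hold both a loss and a gain by a factor of 1.5. Leaving out single libraries moved them to between -1.23 and -0.53 for Agrp, -0.80 and -0.14 for Pomc and -0.70 and -0.18 for Npy, nearest to 0 without intruder replicate 3 and farthest without intruder replicate 4 (Agrp, Npy) or 1 (Pomc). The 2 exposures at this time had 34 genes called, 0.192% of 17676 tested, and 7 of 8 members were estimated lower in intruder animals with a median log2 difference of -0.34; over all genes 2037 had an unadjusted p under 0.05. The summed vascular and meningeal markers (8 genes, none at 0 in any hypothalamus library) were also lower in these intruder animals, at 111 to 144 CPM against 164 to 231 CPM in controls, and their part in the members' lower estimates was not tested.

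At 30 min Pomc was at 75.4, 6.55 and 3.71 CPM in the 3 hypothalamus controls and at 48.8, 48.1, 59.1, 9.36 and 31.4 CPM in intruder animals. A log2 difference of 0.46 ± 0.7 SE between such groups has an interval of -0.97 to 1.9, and 2 of the 3 controls were among the 6 libraries low in Agrp. The estimate turned on single controls: without control replicate 2 it was 2.95 (unadjusted p 0.000764, adjusted p 0.934), with Agrp at 4.83 (0.00363, 0.934) and Npy at 1.65 (0.0178, 0.934), while without control replicate 5 it was -0.06, with Agrp at -0.27 and Npy at -0.41. At 60 min Pomc was at 47.7, 34.4, 41.9, 40.4 and 17.8 CPM against 32.7, 52.9, 62.7, 53.7 and 32.3 CPM (log2 0.36 ± 0.595). All 8 members were estimated higher in intruder animals at that time, with a median log2 difference of 0.25, and none was called. The background was 0% of genes at 30 min and 0% at 60 min in hypothalamus, where edgeR gave 339 and 393 genes at an unadjusted p under 0.05 and DESeq2 called 0 at both times.

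Adding the arcuate marker score (Ghrh, Tac2, Prlr, Crabp1 and Sox14) to the model, an alternative chosen after the data were seen, lowered the standard errors of Pomc, Agrp, Npy, Cartpt and Mc3r by 1.78 to 2.4 times and still called none. The 120 min differences then were -0.39 ± 0.447 SE for Agrp, -0.20 ± 0.251 for Pomc (95% interval -0.71 to 0.32) and -0.05 ± 0.241 for Npy. At 60 min the estimates changed sign, from 0.36 to -0.15 for Pomc, from 0.28 to -0.40 for Agrp and from 0.23 to -0.22 for Npy. At 30 min Pomc then differed by 0.58 ± 0.299 (interval -0.03 to 1.2).

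Among the hypothalamic receptors, in the model without the score, Npy1r differed by -0.04 at 120 min (interval -0.25 to 0.17) and by 0.20 at 60 min (p 0.0546), and Mc4r by 0.29 at 120 min (-0.02 to 0.61). Lepr was less tightly measured; at 120 min, with 4.45, 8.26, 11.4, 4.37 and 2.86 CPM in controls and 2.79, 5.45, 2.46, 5.5 and 4.56 CPM in intruder animals, it differed by -0.60 (-1.33 to 0.13). With the score in the model the values were 0.01 for Npy1r at 120 min, 0.14 (p 0.0747) for Npy1r at 60 min, 0.26 for Mc4r and -0.31 (-0.85 to 0.24) for Lepr.

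**Figure D3:**
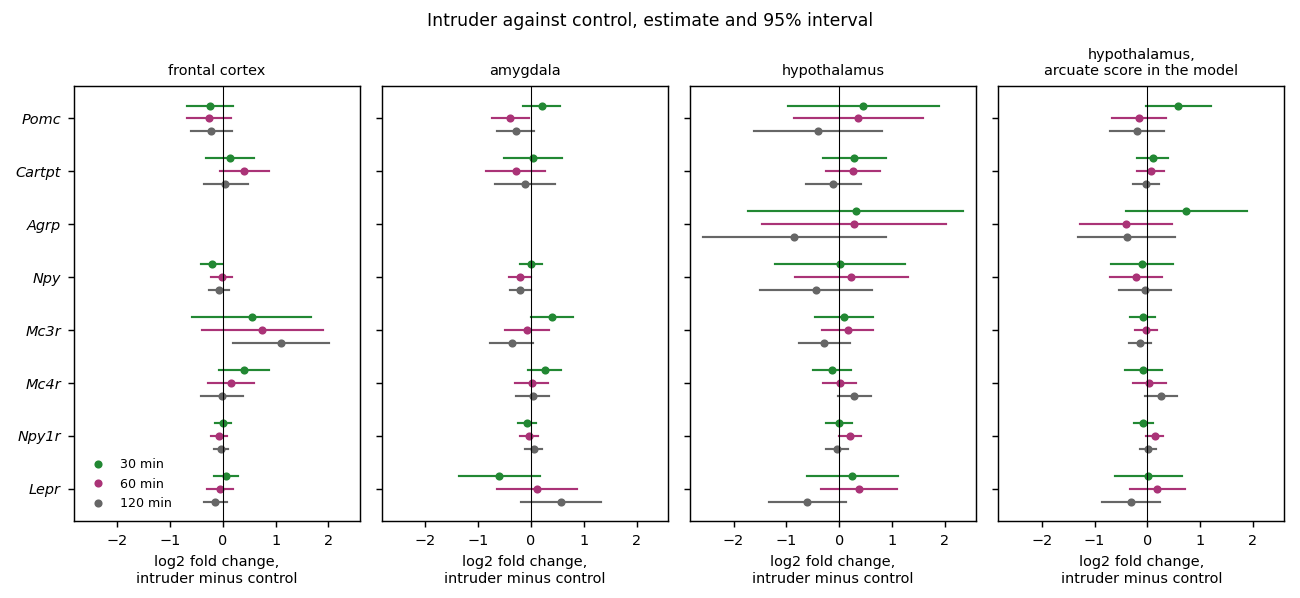
Log2 fold change of intruder against control for each member at 30, 60 and 120 min in frontal cortex, amygdala and hypothalamus, and in hypothalamus with the arcuate marker score in the model; points are estimates and bars 95% intervals, and Agrp is shown only for hypothalamus. Intervals of Pomc, Agrp and Npy are widest in hypothalamus and narrow with the score, and Npy1r is narrow throughout.

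In the amygdala, 2 of the 4 tests with an unadjusted p under 0.05 fell at 60 min. Pomc was at 0.832, 0.965, 1.48, 1 and 1.44 CPM in controls and at 0.567, 0.886, 0.983, 0.8 and 1.13 CPM in intruder animals (log2 -0.39 ± 0.169 SE, p 0.0301, adjusted p 0.682). Npy was at 30.8, 38.6, 44.4, 32.7 and 35.9 CPM against 32.1, 29.7, 32.7, 30.4 and 33.1 CPM (-0.21 ± 0.0978, p 0.0449, adjusted p 0.696). Groups overlapped for both genes, and neither was called. Control replicate 6, with 1.44 CPM of Pomc, is also the amygdala library with 14.2 CPM of the pituitary gene Gh; Pomc is made in the pituitary too, and the part of this in the difference was not tested. Amygdala background was 0% at 30 min and 0% at 60 min, with 473 and 1232 genes at an unadjusted p under 0.05 and none called by DESeq2, and 0.538% at 120 min, when 93 genes were called and 2617 had an unadjusted p under 0.05. No member was among those 93, and with the library index as a block 0 genes were called at that time. The members' median log2 differences were 0.03, -0.07 and -0.11 at the 3 times.

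In the frontal cortex the largest estimate of all, 1.11 ± 0.444 SE for Mc3r at 120 min (p 0.0183, adjusted p 0.851), came from 1 library. Intruder replicate 1 held 1.45 CPM of Mc3r and the other 5 held 0.144 to 0.256 CPM, against 0.14 to 0.259 CPM in the 6 controls. Without it the difference was 0.06 ± 0.304 (p 0.848). That library also held 14.7 CPM of Oxt, the oxytocin gene of the paraventricular and supraoptic nuclei, against 0.12 to 0.225 CPM in the other 5, and 7.85 CPM of Avp against 0.179 to 0.328 CPM. Npy at 30 min was at 62.4 to 75.1 CPM in controls and at 51.2 to 67.2 CPM in intruder animals (-0.21 ± 0.101, p 0.0438, adjusted p 0.771). Npy1r differences had intervals within -0.22 to 0.15 at all 3 times. Background in frontal cortex was 0% at each time, with 1074, 434 and 912 of 17091 genes at an unadjusted p under 0.05 at 30, 60 and 120 min and 0 called by DESeq2.

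Frontal cortex libraries differed between times, a difference that cannot be told apart from library index or, at 30 min, from the header tag. Lepr was near the top of the genes that differed. In controls Lepr was at 5.21, 4.82, 4.15, 4.83 and 4.4 CPM at 30 min, at 2.39, 2.35, 2.37, 1.74 and 2.81 CPM at 60 min, and at 2.59 to 3.62 CPM with a median of 2.98 at 120 min. Intruder animals had 5.35, 4.83, 5.4, 4.71 and 4.05 CPM at 30 min, 2.56, 2.04, 2.66, 2.05 and 1.94 CPM at 60 min, and 2.51 to 3.39 CPM at 120 min. All 30 min libraries lay above all later libraries. The share of all genes separated in this way between times was not counted, here or for the other members below. Lepr was 0.499-fold at 60 min relative to 30 min in controls (log2 -1 ± 0.115 SE, adjusted p 2.23e-06) and 0.462-fold in intruder animals (-1.12 ± 0.116, 9.87e-08). From 60 to 120 min, within 1 header tag but between different library indices, it rose 1.31-fold in controls (0.39 ± 0.113, 0.0201) and 1.24-fold in intruder animals (0.31 ± 0.113, 0.0446). By smallest p for any difference between times, Lepr ranked 7 of 17091 in controls and 8 in intruder animals.

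In the same test 3 of 7 members were called in controls, against 33.4% of all genes, and 4 of 7 in intruder animals, against 46.1%. Mc4r rose where Lepr fell: controls were at 1.05, 1.14, 1.49, 0.773 and 0.944 CPM at 30 min, at 2.33, 2.07, 1.66, 2.53 and 1.5 CPM at 60 min and at 1.73 to 2.62 CPM at 120 min. Every later control lay above every 30 min control, by 1.87-fold at 60 min (log2 0.90 ± 0.227, adjusted p 0.0027) and 1.97-fold at 120 min (0.98 ± 0.218, 0.0103). In intruder animals the groups overlapped and the 60 min difference was 0.66 ± 0.22 (adjusted p 0.0151), while that at 120 min, 0.56 ± 0.212, was not called (0.062). That call over the 3 times (adjusted p 0.03) was lost without intruder replicate 3 (0.072), 4 (0.0908) or 5 (0.092) of 30 min or replicate 3 of 60 min (0.0502).

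Npy1r fell modestly from 30 to 60 min, by 0.31 on the log2 scale in intruder animals (SE 0.073, adjusted p 0.000893) and by 0.24 in controls (SE 0.073, adjusted p 0.0105). Controls were at 31.4 to 39.2 CPM at 30 min and 27.1 to 31.2 CPM at 60 min, intruder animals at 31.1 to 38.2 CPM and 25.9 to 29.5 CPM, so the 2 times did not overlap in either exposure. At 120 against 30 min Npy1r was called in neither controls (-0.09, adjusted p 0.52) nor intruder animals (-0.12, 0.234), and from 60 to 120 min it rose in intruder animals (0.19, 0.0477). The control call over the 3 times (adjusted p 0.0299) was lost without replicate 4 (0.0884) or 5 (0.0857) of 30 min or replicate 1 (0.101), 2 (0.0856) or 5 (0.0639) of 60 min. Npy rose in intruder animals, from 51.2 to 67.2 CPM at 30 min to 63.4 to 89.9 CPM at 60 min (log2 0.37 ± 0.101, adjusted p 0.00388), a change over the 3 times (0.0107) no longer called without intruder replicate 5 of 60 min (0.0558). At 120 against 30 min the Npy difference in intruder animals was 0.12 (adjusted p 0.403). In controls Npy was not called (0.221), and the difference between exposures in the change with time did not pass the test (interaction adjusted p 0.971).

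**Figure D4:**
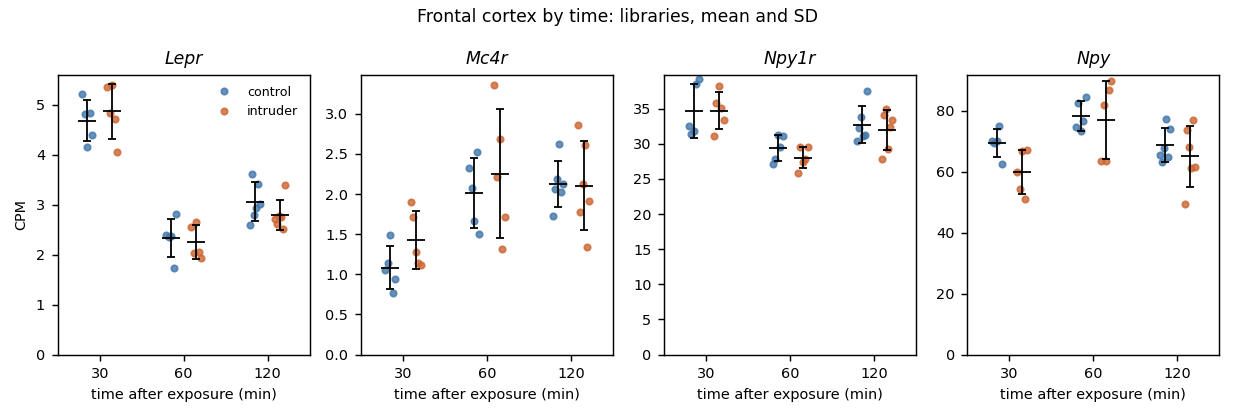
Frontal cortex levels of Lepr, Mc4r, Npy1r and Npy in CPM at 30, 60 and 120 min, with 1 point per library and bars for the mean and SD of 5 or 6 libraries. Lepr is highest at 30 min in both exposures with no overlap with later times, and Mc4r is lowest at 30 min in controls.

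Other markers shifted between the same frontal cortex groups. The summed vascular and meningeal markers (8 genes) ran from 245 to 281 CPM in controls at 30 min, 173 to 237 at 60 min and 207 to 237 at 120 min, in the direction of Lepr, and the meningeal gene Dcn from 12.9 to 15.5, 9.01 to 11.7 and 9.06 to 12.1 CPM. Interneuron markers (6 genes) ran from 241 to 276, 300 to 330 and 270 to 306 CPM, and oligodendrocyte markers (4 genes) from 2250 to 2830, 3230 to 4920 and 2680 to 4240 CPM, higher at the later times. Cortical glutamatergic markers (5 genes) ran from 1560 to 1680, 1710 to 1850 and 1540 to 1900 CPM, and the tanycyte list (6 genes) from 68.6 to 75.4, 75.9 to 130 and 82.2 to 103 CPM. Apart from 1 gene of the tanycyte list, no gene of these 5 lists was at 0 in any frontal cortex library, and their part in the changes was not tested. Leprot, whose gene shares its start with Lepr, was at 22.4 to 24.8, 23.3 to 27.4 and 22.2 to 26.2 CPM in those controls.

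Outside the frontal cortex, few members were called over time. In amygdala controls 0 of 7 were called (background 0.232%), with 0 at an unadjusted p under 0.05 by edgeR and 0 called by DESeq2. In amygdala intruder animals, where 12.9% of genes were called, 1 of 7 was: Mc3r, at 2.03 to 2.55 CPM at 30 min, 0.843 to 1.84 CPM at 60 min and 1.14 to 2.11 CPM at 120 min (60 against 30 min log2 -0.75 ± 0.199 SE, adjusted p 0.0218). Every 60 min library lay below every 30 min library, and the share of all genes so separated was not counted. Its call over the 3 times (adjusted p 0.0254) was lost with the library index as a block (0.784) and without replicate 1 (0.0722) or 4 (0.0559) of 30 min. In these amygdala libraries at 30, 60 and 120 min, summed arcuate markers (5 genes, 1 of them at 0 in some amygdala library) ran from 26.1 to 42.3, 18.4 to 28.7 and 23.3 to 33.1 CPM, and ventromedial markers (3 genes, 2 at 0 in some) from 3.49 to 6.1, 2.18 to 4.28 and 2.17 to 5.3 CPM, both with their lowest median at 60 min. Sox14 is on both of these lists. The paraventricular list (5 genes) also had its lowest median at 60 min, with 56.7, 41.5 and 57.2 CPM. Other hypothalamic lists ran differently, with medians of 8.33, 9.21 and 10.1 CPM for the lateral hypothalamus (3 genes). The tanycyte list (6 genes) had 108, 126 and 106 CPM. The part of any of these lists in the Mc3r change was not tested. Hypothalamus controls had 0 of 8 members called (background 0.181%; 0 at an unadjusted p under 0.05; DESeq2 0) and hypothalamus intruder animals 0 of 8 (background 1.49%; 1 at an unadjusted p under 0.05, Lepr at 0.048; DESeq2 0). A difference between exposures in the change with time was called for 0 members by edgeR, and for 0 by DESeq2, which gave an adjusted p to 4 of the 7 members in amygdala; edgeR called 0%, 0% and 0.0113% of all genes in amygdala, frontal cortex and hypothalamus; the lowest member p were 0.0342 for Mc3r and 0.0453 for Pomc, both in amygdala, and 2094, 761 and 1003 genes in all had an unadjusted p under 0.05.

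Whether the time course differed between regions was tested in the controls, a test added after the data were seen. Mc4r was called (F 11.9, adjusted p 0.000537), 1 of 7 members against 20.9% of genes. Lepr (adjusted p 0.0824) and Npy1r (0.0909) were not. In control amygdala and hypothalamus, Mc4r was not called over time.

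The wider pathway was followed in a list of 45 genes: enzymes that cut and finish the precursors, other ligands and receptors, leptin and insulin signalling genes, and hypothalamic transcription factors. Between 31 and 38 of them were tested per region. In the intruder comparisons 0 were called in any region or time by edgeR, and 9 of 309 tests (2.91%) had an unadjusted p under 0.05, against 6.09% of the tests over all genes. Over frontal cortex times 7 of 31 were called in controls and 8 in intruder animals, against the 33.4% and 46.1% given above. From 30 to 60 min in controls 6 called genes fell and 1 rose, a count given without the share over all genes in that comparison. The insulin receptor Insr was at 58.5 to 63.8 CPM at 30 min, 38.6 to 46.5 CPM at 60 min and 44.6 to 56.1 CPM at 120 min (adjusted p 0.000248), and the phosphatase Ptpn2 (0.000248) and the insulin receptor substrate Irs1 (0.00102) were called with it. Sh2b1, an adaptor that enhances leptin signalling, was the 1 that rose. In amygdala intruder animals Scg5, Jak2 and Ptpn2 were called over time (adjusted p 0.0051, 0.0273 and 0.00717); none of the 3 was called with the library index as a block (0.811, 0.782 and 0.976). In hypothalamus none was called in either exposure.

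Between control hypothalamus and frontal cortex, 36 of 37 pathway genes were called, 23 higher and 13 lower in hypothalamus, where 81.9% of all genes were called, with a median log2 difference of 0.43 against 0.01 over all genes. All 7 transcription factors tested were higher, led by Sim1, needed for the paraventricular neurons that carry Mc4r (log2 10.29 ± 0.29 SE), Otp (9.70) and Nr5a1 of the ventromedial nucleus (7.22); frontal cortex levels of these were near 0, so the sizes depend on the prior count. Among receptors 10 of 13 were higher, with Calcr (9.03), the ghrelin receptor Ghsr (7.63) and Glp1r (5.21) first; frontal cortex medians were 0.0297 CPM for Calcr and 0.0212 CPM for Ghsr, so these sizes and their order depend on the prior count as well. Of the 6 processing enzymes 2 were called higher, Pcsk1 (0.66) and Pam (0.58), and 3 lower, with Pcsk2, which cuts the Pomc product further, at -1.16. Leptin and insulin signalling genes split 4 higher, such as Stat3 (0.58), and 6 lower, such as Ptpn1 (-0.95) and Socs3 (-0.76). Bdnf was lower in hypothalamus (-1.21).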

How the data were processed

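The data are 90 poly(A) RNA libraries of 3 brain regions (TruSeq Stranded mRNA, single-end reads, per the labels' protocols). The deposited table holds raw read counts per Ensembl gene made by the authors; the submitters' processing notes name CASAVA 1.8.2, TopHat2 2.0.8, HTSeq 0.6.1, edgeR 3.2.4, R 3.0.0 and the build NCBIM37. Of all reads, 20.61% to 25.32% lie in 5 rows naming no gene, which were left out. Symbols came from a RefSeq-based table for 32919 of 37991 identifiers. A strand setting for counting was not given in the sources used here.

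Groups, times and animals came from the labels. For each region 1 edgeR 4.0.16 quasi-likelihood fit over 6 groups was made (R 4.3.3, limma 3.58.1; TMM, filterByExpr, trended dispersion, Benjamini-Hochberg over all genes, threshold 0.05). Regions were compared in control libraries with the animal as a block. Correlations used log2 CPM (prior count 2) and 100000 permutations (scipy 1.17.1, pandas 2.3.3, Python 3.11.15); intervals are 95%. Alternatives were DESeq2 1.42.0, other scalings, no filter, blocks for replicate number and library index, smaller fits, and leaving out libraries. The tests were tested on simulated data.

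The members and gene lists were chosen with earlier results of these data known, and the arcuate covariate, the comparison without libraries high in Gh or Ttr, the test of time by region and that of 60 against 120 min were chosen after seeing the data. All 8 members are named; of the pathway list, any gene called between exposures and otherwise up to 3 per group with the smallest p or, between regions, the largest fold; and the 3 genes nearest to each ligand in the hypothalamus with a mean of at least 1 CPM.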

Additional observations from a re-analysis of the deposited data

Results flagged for a closer look

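Among 136 sets of 1 member in a group of 5 or 6 libraries, 5 had 1 value well apart from the rest. Chance gives about 1 in 20, so 5 is no more than chance would give. In frontal cortex at 120 min, intruder replicate 1 held 1.45 CPM of Mc3r (others 0.144 to 0.256 CPM), and intruder replicate 6 held 3.39 CPM of Lepr (others 2.51 to 2.77 CPM). In hypothalamus at 60 min, control replicate 6, 1 of the 6 libraries low in Agrp, held 44.1 CPM of Cartpt (others 61.6 to 68.1 CPM) and 6.12 CPM of Mc3r (others 8.68 to 9.41 CPM); it also held 16.4 CPM of Gh. Intruder replicate 5 at that time held 6.52 CPM of Mc4r (others 4.56 to 4.71 CPM).

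The change of Mc4r with time differed between regions in the controls (adjusted p 0.000537): it was called in frontal cortex and in neither other region.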

How the results depend on the processing

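No result changed direction among called values, and the intruder comparisons had 0 members called under every alternative run. Over 3 times, the count of 1 member in amygdala intruder animals became 2 with the replicate block, 0 with the index block, 0 for 60 against 120 min alone and 2 with DESeq2, and 0 to 2 on leaving out single libraries. In frontal cortex, 60 against 120 min alone left 1 of 3 in controls and 2 of 4 in intruder animals; leaving out single libraries gave 2 to 3 and 3 to 4. The 26 correlated pairs in hypothalamus became 16 within 60 min and 13 within 120 min, with fewer libraries in each. In all, with the members' changes already named counted in, single-library omissions left 267 counts within 1.5 times and moved 3. They left 115 named gene calls as they were, with 12 lost. Other settings left 139 counts and 156 calls, moving 8 and losing 4. The losses of Scg5, Jak2 and Ptpn2 with the index block are not in these numbers.

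Replicate numbers did not pair the samples: same-numbered libraries had correlations of -0.5 to 0.56, and 0 of 9 sets had every pair over 0.1. The replicate block moved all called genes from 93 to 199 in amygdala at 120 min and from 34 to 6 in hypothalamus at 120 min. Those counts were 0 and 0 with the 2 groups alone and 413 and 90 with DESeq2; in amygdala they were 12 without the filter and 0 with the index block. Amygdala intruder times gave 2225 genes, and 2 with the index block. In frontal cortex, 60 against 120 min alone gave 2713 and 3914 genes against 5704 and 7875. Interaction counts of 0, 0 and 2 were 157, 4 and 23 with DESeq2 in amygdala, frontal cortex and hypothalamus. The index block could not be fitted for frontal cortex at 120 min, over time or for the interaction. Agrp outside hypothalamus (0 to 10 reads) and Mc3r in frontal cortex controls (3 to 12 reads) are limited by depth, and hypothalamus ligands by the spread between libraries.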
